A study of Mus musculus with 8 samples.

Results

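The genes described here are 10 antimicrobial and oxidant defence genes that the gut epithelium and the cells beneath it can express: Reg3a, Reg3b, Reg3g, Pla2g2a, Ang4, Lbp, Saa3, Duox2, Duoxa2 and Nos2. They were chosen by gene symbol, with earlier results of these data known. All 10 were found in the array's probe annotation, on 11 probes, among 23814 measurements that could be tested. The RNA was from whole colon of 8 males of the mdr1a-/- genotype, which lack a drug efflux transporter and are used as a model of inflammatory bowel disease. Of these, 4 ate the AIN-76A control diet and 4 ate it with 0.2% curcumin, a polyphenol from turmeric root. Both groups carry the mdr1a disruption. Per the design text the arrays compare controls whose tissue scored high for histological injury with curcumin mice whose tissue scored low. The arrayed groups therefore differ in injury as well as in diet, and injury and diet cannot be told apart here. The study had 12 mice per diet, so the 4 arrayed may not stand for their whole diet group. Below, a change with curcumin means a difference between these arrayed groups. The labels name the Swiss mouse as the strain of both channels on the control arrays, name no strain for the mdr1a-/- mice on the curcumin arrays, and put the age at 7 weeks, whereas the mice were followed to 24 weeks in the design text. The titles number 4 mice per diet and the design text calls them biological replicates.

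Each mouse had its own 2-colour array, with its RNA in Cy3 and a reference RNA in Cy5, and the deposited value is a log2 ratio of the channels. The arrays held 33761 to 39257 values each. The direction of the ratio is not stated. It was read as mouse over reference, which is likely but not settled: the liver transcript Apoa1 (-4.52 to -3.86), the liver transcript Alb (-1.45 to -0.67) and Xist, which female cells make (-1.57 to -1.05), lay below 0 on all 8 arrays of male colon. The other reading would turn every sign below. The labels call the reference wild-type colon on the same diet, yet the mean log ratio of 13 liver genes was -3.04 to -2.70 in control mice and -3.28 to -3.01 in curcumin mice, and that of 9 kidney genes -2.17 to -1.66 and -2.26 to -2.09. A log ratio therefore says nothing of how abundant a transcript is. None of these liver and kidney genes passed between the diets, and the list medians were -0.16 and -0.18. The smallest p in liver were those of Ttr (-0.33, adjusted p = 0.0544 in limma) and Hp (-1.91, adjusted p = 0.08). In kidney they were those of Slc22a12 (-0.37, adjusted p = 0.257) and Slc12a1 (-0.24, adjusted p = 0.379). Whether the reference differed between the diets was not tested, for Lbp as for the other genes. Most of the epithelial markers could not be used to check the tissue: 7 of 11 had too few values left once the log ratio that many features share on an array was set aside. Of the 4 that could be tested, the transcription factor gene Cdx1 rose, from 0.47 ± 0.07 (SD, n = 4) to 0.98 ± 0.17. The others were higher without passing: Epcam by 0.39, Cdh1 by 0.32 and Cdx2 by 0.74 (adjusted p = 0.227, 0.26 and 0.377 in limma). The median difference was 0.45. Over the 3 with a value in every mouse, the mean ran from -0.05 to 0.31 in control mice and from 0.43 to 0.94 in curcumin mice. The part of epithelial content in the values below was not tested. None of the 11 probes of the 10 defence genes held the shared value on any array.

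The epithelium of the gut keeps bacteria away from its surface with secreted proteins and with oxidants. Reg3 proteins are C-type lectins that bind or kill bacteria and are induced by interleukin 22 and by microbial signals. Pla2g2a is a secreted phospholipase that cuts the membrane lipids of bacteria, and Ang4 is a ribonuclease that in mice is secreted by Paneth and goblet cells. Lbp carries lipopolysaccharide to its receptor, and Saa3 is an acute phase protein of epithelium, macrophages and fat. Duox2 makes hydrogen peroxide at the apical membrane and needs its maturation factor Duoxa2 to reach it, while Nos2 makes nitric oxide in inflamed epithelium and macrophages.

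Of the 10 genes, 2 fell with curcumin and none rose (adjusted p under 0.05 in limma). The secreted phospholipase Pla2g2a was 3.59-fold lower and the lipopolysaccharide carrier Lbp 1.67-fold lower. Over all measurements 4.54% passed this threshold, 2.54% lower and 2% higher. The control and curcumin values did not overlap for 3 of the 10 genes, Reg3a, Pla2g2a and Lbp, and in all 3 curcumin was the lower group. Over all measurements 12.4% did not overlap, 7.14% with curcumin lower. An unadjusted p under 0.05 was reached by 5 of 10, against 18.3% of all measurements. The estimate was below 0 for 7 genes and above 0 for 3, with a median log2 difference of -0.34, beside -0.02 over all measurements. The sizes were large for this data set, with a median absolute log2 difference of 0.78 against 0.11, and so was the error, with SE from 0.13 to 0.47 against a median of 0.11 over all measurements. Because the 10 genes were chosen with earlier results of these data known, these shares and sizes are description and not a test.

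**Figure D1:**
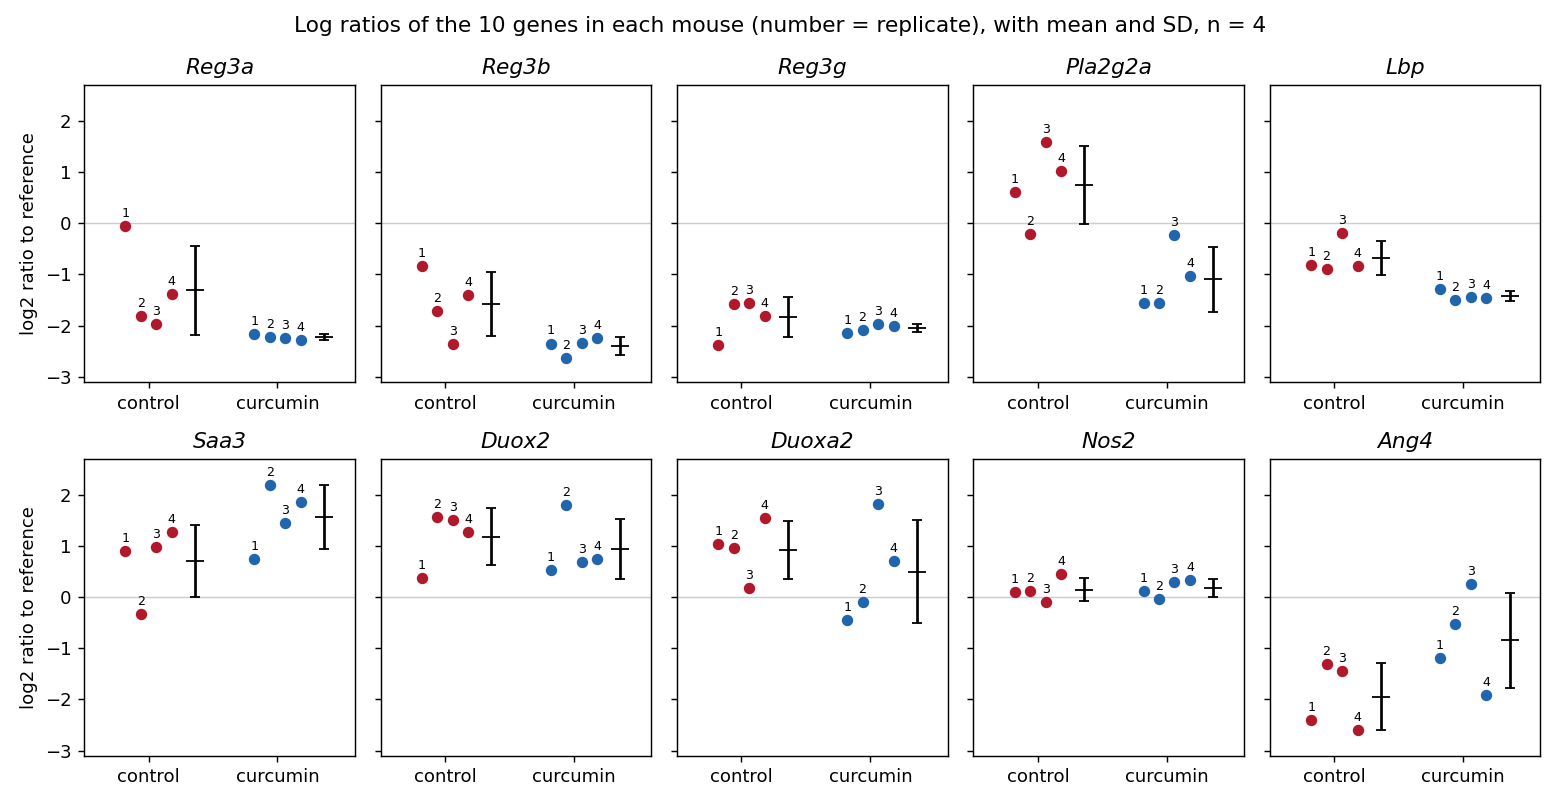
Log2 ratio to the reference (vertical axis) of each of the 10 genes in each of 8 mice, control in red and curcumin in blue. Each point is 1 mouse with its replicate number, and the bars are mean and SD over 4 mice; Pla2g2a and Lbp lie lower in every curcumin mouse, and Reg3a in control 1 lies far above the other 7 mice.

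Pla2g2a showed the largest change of the 10. Its log ratio in the 4 control mice was 0.60, -0.21, 1.59 and 1.01, and in the 4 curcumin mice -1.57, -1.56, -0.23 and -1.02. Every curcumin mouse was below every control mouse, but the gap was narrow, since control 2 and curcumin 3 differed by less than the spread within either group. The means were 0.75 ± 0.76 (SD, n = 4) and -1.10 ± 0.63, a log2 difference of -1.84 (SE 0.40, adjusted p = 0.036 in limma), and 0.227% of all measurements changed as much in either direction. The exact two-sided permutation test gave p = 0.0286, the smallest that 4 against 4 mice allow. The call was lost in 6 of the 8 fits that left out 1 mouse, with differences from -2.16 to -1.56 and adjusted p up to 0.103, and was kept without control 2 and without curcumin 3. RefSeq, whose mouse genome is that of C57BL/6J, lists Pla2g2a as a transcribed pseudogene, because that strain carries a disrupted copy of the gene; which allele these mice carry was not tested.

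Lbp was lower in every curcumin mouse. Control mice had log ratios of -0.81, -0.90, -0.19 and -0.83, and curcumin mice -1.28, -1.50, -1.45 and -1.47. The groups did not overlap, and control 3 stood above the other controls. From a mean of -0.68 ± 0.33 (SD, n = 4) Lbp fell to -1.42 ± 0.10, a log2 difference of -0.74 (SE 0.15, adjusted p = 0.0289 in limma; exact permutation p = 0.0286). The SD over the other 3 controls, without control 3, was 0.046. Leaving out control 3 moved the difference to -0.58 and the call held; without control 1, without control 4 or without any 1 of the 4 curcumin mice it was lost, at adjusted p of 0.0528 to 0.0856.

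The 4 control arrays and curcumin arrays 1 and 2 carried slide numbers from 1 range, and curcumin arrays 3 and 4 from another. Within the shared range Pla2g2a differed by -2.31 (SE 0.44, adjusted p = 0.0818 in limma) and Lbp by -0.71 (SE 0.21, adjusted p = 0.214). With the range as a block the adjusted p were 0.0546 and 0.153. The differences were the same by design, since the second range holds only curcumin arrays. Neither call therefore holds once the slide range is allowed for, while both differences kept their direction and a similar size. Both fits rest on the control mice and curcumin 1 and 2 for the difference. The count of all measurements called went from 1082 to 170 within the range and 317 with the block. A slide effect and the smaller number of arrays cannot be told apart in the lost calls.

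Some markers of inflammatory cells fell as well. Of 8 neutrophil markers tested 2 fell (S100a8 and S100a9) and none rose, and the mean log ratio of the list ran from 0.79 to 1.24 in control mice and from -0.44 to 0.22 in curcumin mice. Of 9 macrophage markers 3 fell (C1qa, C1qc and Msr1) and none rose, with list means of 0.64 to 1.10 and -0.03 to 0.43. The other members of both lists did not pass, and their differences varied in size. Among neutrophil markers they reached from Ngp (-1.20, adjusted p = 0.0756 in limma) to the elastase gene Elane (-0.11, adjusted p = 0.7). Among macrophage markers they reached from Mrc1 (-0.98, adjusted p = 0.0514) to the receptor gene Cd163 (0.041, adjusted p = 0.932). The list medians were -0.56 and -0.67. In whole colon, fewer cells of a type and less RNA per cell cannot be told apart, and the part of these cells in the falls of Pla2g2a and Lbp was not tested. Elsewhere in lipopolysaccharide recognition, 2 of 8 tested genes fell and none rose. They were the bacterial lipoprotein receptor Tlr2 (-1.20, SE 0.23, adjusted p = 0.0204) and Ly96, the lipopolysaccharide-binding partner of Tlr4 (-0.68, SE 0.12, adjusted p = 0.0174). The co-receptor Cd14 had -0.96 (adjusted p = 0.122) and Tlr4 itself -0.21 (adjusted p = 0.618). Over the list the median difference was -0.33. Among the other 10 secreted phospholipases A2 none fell and 1 rose, Pla2g10, whose control mean of 1.06 ± 0.13 (SD, n = 4) became 1.81 ± 0.15 with curcumin (difference 0.75, SE 0.10, adjusted p = 0.00571). The median of that list was -0.10.

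**Figure D2:**
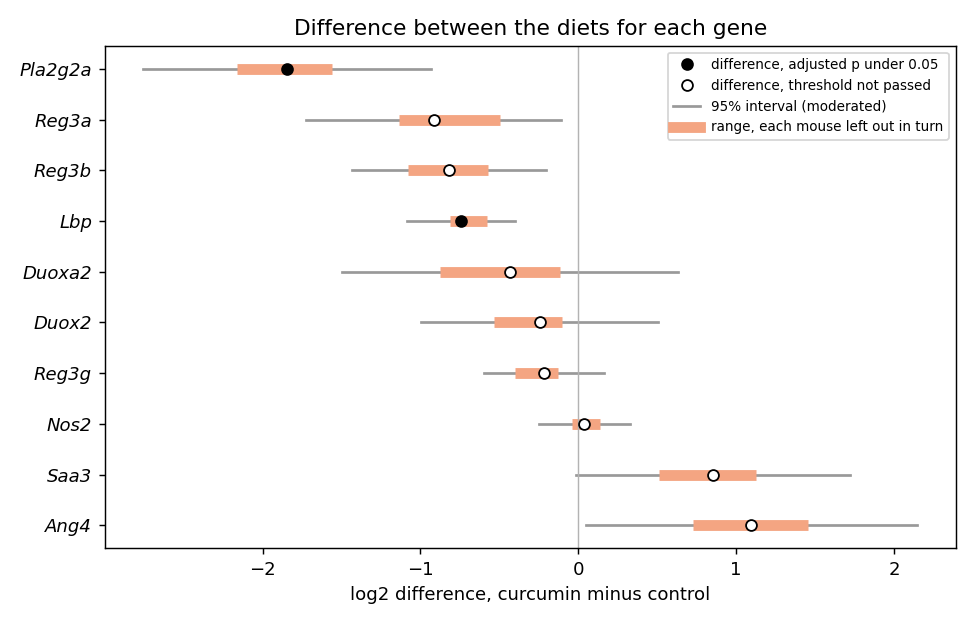
Log2 difference between the diets (horizontal axis, curcumin minus control) for the 10 genes, with the moderated 95% interval as a grey line and the range over 8 fits that each leave out 1 mouse as an orange bar. Filled points passed the threshold; Pla2g2a and Lbp are the filled ones, and the orange bar of Nos2 spans 0.

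Saa3, the other acute phase gene, did not pass. It had log ratios of 0.91, -0.33, 0.98 and 1.27 in control mice and 0.74, 2.18, 1.45 and 1.86 in curcumin mice. Its mean was higher with curcumin, at 1.56 ± 0.62 (SD, n = 4) against 0.70 ± 0.71, opposite in sign to Lbp, but the groups overlapped and the difference did not pass (0.85, SE 0.39, 95% interval -0.02 to 1.72, adjusted p = 0.282 in limma). The highest value was that of curcumin 2 and the lowest that of control 2, and with 1 mouse left out the difference ran from 0.51 to 1.13. Whether Saa3 and Lbp differ in their change was not tested. The serum amyloid gene Saa4 was lower in every curcumin mouse without passing (-0.30, SE 0.09, adjusted p = 0.0912). Saa1 and Saa2, the serum amyloid A genes of liver and gut, had too few values left to be tested once the shared log ratio was set aside. Fat markers were higher in curcumin mice: 4 of 7 adipocyte markers rose and none fell. Beside Fabp4 and Pck1 they were Cidec, a lipid droplet protein (1.93, SE 0.19, adjusted p = 0.00176), and the hormone gene Adipoq (1.84, SE 0.28, adjusted p = 0.00838). The adipocyte list mean ran from -0.81 to -0.34 in control mice and from 0.20 to 0.97 in curcumin mice. Curcumin 2 had the highest Saa3 and the highest adipocyte mean. The order differed in other mice: control 2 had the highest adipocyte mean of the controls and the lowest Saa3 of all 8 mice, and curcumin 3 had the lowest adipocyte mean of the curcumin mice with a Saa3 above that of curcumin 1. Fat cells express both Saa3 and Lbp, and their part in either value was not tested.

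The Reg3 lectins are neighbours on chromosome 6, and the proximal promoters of the 3 genes are shown because Reg3a and Reg3b were highest in the same mouse in which Reg3g was lowest. The 250 bases before each RefSeq start in GRCm38.p6 are printed 5′ to 3′ on the gene's strand. Capitals mark matches to TTCNNNGAA, the palindrome bound by STAT factors, to a loose NF-kappaB motif, GGGA and CC with any 4 bases between them (both on either strand), and to TATAAA on the printed strand.

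Reg3a, chr6:78380459-78380708, plus strand: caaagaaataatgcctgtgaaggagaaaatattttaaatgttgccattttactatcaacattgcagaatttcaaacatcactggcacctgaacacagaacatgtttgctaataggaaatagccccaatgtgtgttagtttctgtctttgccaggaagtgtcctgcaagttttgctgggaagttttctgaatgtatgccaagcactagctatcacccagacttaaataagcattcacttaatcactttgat
Reg3b, chr6:78370635-78370884, plus strand: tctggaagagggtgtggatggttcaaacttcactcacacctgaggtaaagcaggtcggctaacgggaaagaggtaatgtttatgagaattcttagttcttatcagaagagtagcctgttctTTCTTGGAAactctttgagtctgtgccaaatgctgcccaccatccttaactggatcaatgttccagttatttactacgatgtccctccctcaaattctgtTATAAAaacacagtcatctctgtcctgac
Reg3g, chr6:78468875-78469124, minus strand: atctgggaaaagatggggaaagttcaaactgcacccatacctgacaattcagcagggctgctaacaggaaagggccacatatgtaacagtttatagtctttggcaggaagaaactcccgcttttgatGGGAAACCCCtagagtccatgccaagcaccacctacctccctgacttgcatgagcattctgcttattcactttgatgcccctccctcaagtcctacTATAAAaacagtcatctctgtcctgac

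Reg3b and Reg3g each hold a TATAAA close to the start, at 29 to 24 and 27 to 22 bases before it, and Reg3a holds none of the 3 motifs in this window. The match to TTCNNNGAA was found in Reg3b, at 129 to 121 bases before the start, and the NF-kappaB match in Reg3g, at 123 to 114. Among 32851 promoters of the same length 7.02% hold TTCNNNGAA, 17.6% hold the NF-kappaB motif and 7.59% hold TATAAA. Of the 7 promoters found for the 10 genes, 2 hold the first motif, 1 the second and 3 the third; the windows of Saa3 and Duox2 lie inside the annotated gene, downstream of its outermost start. The sequences are those of RefSeq; Pla2g2a, Lbp and Nos2 had no entry.

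Reg3a, the mouse gene that shares its name with the human antimicrobial lectin, had log ratios of -0.055, -1.81, -1.97 and -1.39 in control mice and -2.16, -2.22, -2.24 and -2.29 in curcumin mice. All 4 curcumin mice lay below all controls, and control 1 lay far above the rest. The means were -1.31 ± 0.87 (SD, n = 4) and -2.22 ± 0.05, and the difference of -0.92 did not pass (SE 0.36, adjusted p = 0.206 in limma; exact permutation p = 0.0286). Without control 1 it was -0.50, and the SD of the other 3 controls was 0.30.

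Reg3b, the mouse lectin that acts on gram-negative bacteria among others, had -0.84, -1.72, -2.35 and -1.39 in control mice and -2.35, -2.64, -2.35 and -2.24 in curcumin mice. Control 3 lay within the curcumin range and the other 3 controls above it. The difference of -0.82 did not pass (SE 0.27, adjusted p = 0.138 in limma; exact permutation p = 0.114), and without control 3 it was -1.08 and passed (adjusted p = 0.0199). Without control 1 it was -0.57 (adjusted p = 0.208).

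Reg3g, which acts on gram-positive bacteria, did not pass either. It had -2.38, -1.57, -1.57 and -1.81 in control mice and -2.15, -2.08, -1.96 and -2.01 in curcumin mice. Control 1, which was highest of all 8 mice for Reg3a and Reg3b, was lowest of all 8 for Reg3g. The difference was -0.22 (SE 0.17, 95% interval -0.60 to 0.16, adjusted p = 0.568 in limma). Without control 1 it was -0.40 (adjusted p = 0.0716), nearer to the values of Reg3a and Reg3b without that mouse, and differences between the 3 genes were not tested. The Reg3 genes are close relatives, and how far their probes bind each other's transcripts was not tested.

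A larger SD in controls was seen for 7 of the 10 defence genes, as for 59.4% of all measurements. The ratio of control to curcumin SD was 16.6 for Reg3a, 4.72 for Reg3g, 3.66 for Reg3b and 3.35 for Lbp. As large a ratio was found in 0.126%, 3.26%, 6.19% and 7.53% of all measurements. For the remaining genes the ratio lay between 0.56 (Duoxa2) and 1.32 (Nos2). The large ratios depended on single mice. Without control 1 the control SD went from 0.87 to 0.30 for Reg3a and from 0.38 to 0.14 for Reg3g. Without control 3 it went from 0.63 to 0.45 for Reg3b and from 0.33 to 0.046 for Lbp. That Lbp value is below the SD of 0.10 in curcumin mice. All 3 Reg3 genes lay below 0 in all 8 mice, so on this reading the reference held relatively more of each than any of the 8 colons.

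Reg genes are also expressed in the pancreas, and pancreatic transcripts differed widely between mice. The mean log ratio of 9 acinar genes, 8 of them with a value in every mouse, was 1.06, -1.26, -1.04 and -0.59 in control mice and 1.38, 1.31, -1.30 and 1.70 in curcumin mice. It was high in control 1 and in curcumin 1, 2 and 4. The acinar elastase gene Cela1 rose with curcumin (1.77, SE 0.39, adjusted p = 0.036), and the other 8 acinar genes did not pass. Control 1, with the highest Reg3a and Reg3b, was thus the control with the highest acinar mean, whereas the 3 curcumin mice with higher acinar means had Reg3a at -2.29 to -2.16. Of the 4 other Reg genes none passed. Reg2, a pancreatic and intestinal member, had 2.16, -2.44, -1.96 and 1.56 in control mice and -1.43, -1.41, -2.04 and 0.56 in curcumin mice (difference -0.91, SE 1.06, adjusted p = 0.723). Its controls ranked in the order 1, 4, 3 and 2, with the same leading mice as Reg3a and Reg3b. Reg4, a gene of goblet and enteroendocrine cells, had a difference of 0.53 (SE 0.38, adjusted p = 0.53). The part of pancreatic RNA in the Reg3 values was not tested.

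**Figure D3:**
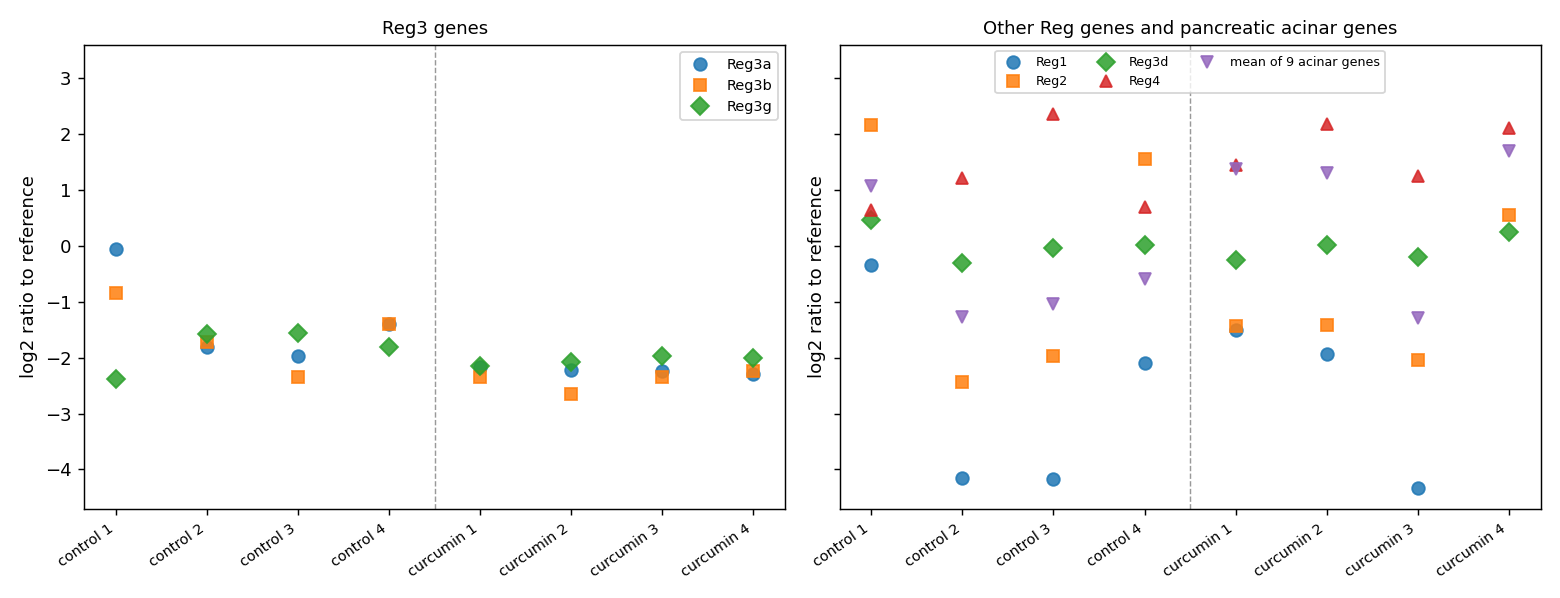
Log2 ratio to the reference (vertical axis) in each of 8 mice (horizontal axis, control left of the dashed line) for the 3 Reg3 genes on the left, and for Reg1, Reg2, Reg3d, Reg4 and the mean of 9 pancreatic acinar genes on the right. Reg3a and Reg3b are highest in control 1, where Reg3g is lowest, and the acinar mean is high in control 1 and in curcumin 1, 2 and 4; Reg1 has no value in curcumin 4.

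Upstream of the Reg3 genes in the interleukin 22 and 17 pathways, 1 of 12 tested genes fell and none rose. That gene was Socs3, the feedback inhibitor induced by STAT3, with 0.94 ± 0.47 (SD, n = 4) in control and -0.77 ± 0.59 in curcumin mice (difference -1.71, SE 0.31, adjusted p = 0.0176). Stat3 had -0.34 (adjusted p = 0.168) and the receptor subunit Il22ra1 -0.06 (adjusted p = 0.757), and the list median was -0.08. Il22, Il17a and the decoy receptor gene Il22ra2 had too few values to be tested. Among 17 other secreted antimicrobial genes 2 fell and none rose, with a median of -0.26. They were the lysozyme gene Lyz2, which macrophages and neutrophils express (-1.59, SE 0.21, adjusted p = 0.00512), and the lactoferrin gene Ltf, found in neutrophil granules (-1.13, SE 0.24, adjusted p = 0.0314). The peptide gene Camp had -2.14 and the siderophore-binding Lcn2 -1.23, without passing (adjusted p = 0.154 and 0.116).

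Ang4 had the largest estimate above 0. Its log ratio, averaged over 2 probes, was -2.41, -1.32, -1.45 and -2.60 in control mice and -1.20, -0.53, 0.26 and -1.92 in curcumin mice. Curcumin 3 was the highest and curcumin 4 lay among the controls. The difference of 1.10 did not pass (SE 0.46, 95% interval 0.05 to 2.14, adjusted p = 0.249 in limma; exact permutation p = 0.114), and the probes gave 1.12 and 1.08. With 1 mouse left out it ran from 0.73, without curcumin 3, to 1.45. Probes of the related angiogenin genes followed it closely. Ang differed by 1.02 (adjusted p = 0.163), Ang2 by 1.14 (adjusted p = 0.159) and Ang3 by 1.11 (adjusted p = 0.201). Within 1 mouse the 5 probes of these 4 genes spanned 0.21 to 0.76, while each probe spanned 2.41 to 3.13 over the 8 mice. These genes are close relatives, and how far their probes bind each other's transcripts was not tested. The values give no Ang4 level separate from the others.

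**Figure D4:**
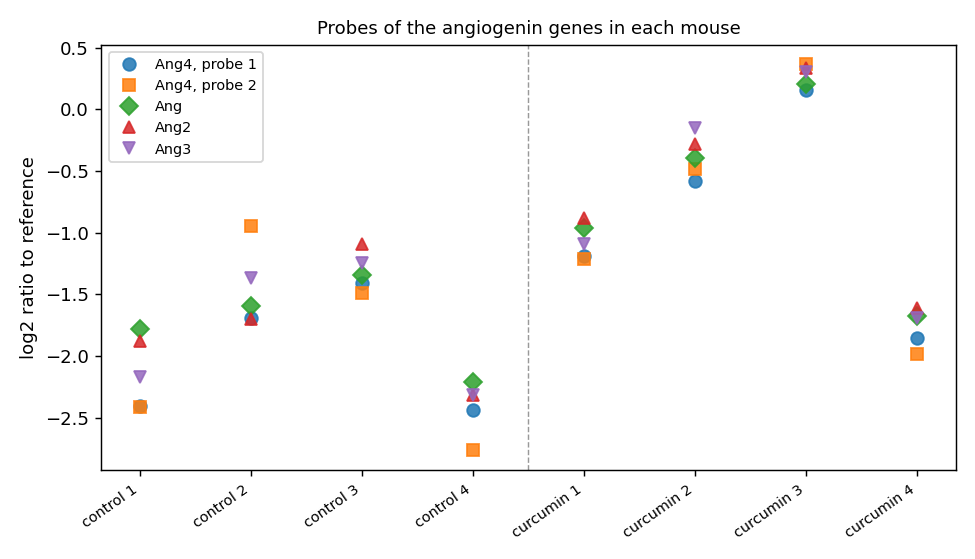
Log2 ratio to the reference (vertical axis) of 2 Ang4 probes and of the Ang, Ang2 and Ang3 measurements in each of 8 mice (horizontal axis, control left of the dashed line). In every mouse the 5 points lie within 0.76 of each other, and curcumin 3 is the highest.

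Of the 8 tested genes in the ribonuclease list none passed. Their median was 0.56 with Ang, Ang2 and Ang3 and 0.034 over the other 5, which are 4 ribonuclease genes and Rnh1, the gene of a ribonuclease inhibitor. Paneth cell markers, which would show small intestine or Paneth cell metaplasia, had 3 tested genes of 11 and none called. The smallest p were those of the defensin genes Defa31 (-1.10, adjusted p = 0.198 in limma) and Defa22 (-0.74, adjusted p = 0.281). The mean of the 3 tested genes was below 0 in all mice (-3.32 to -1.24 in control and -3.62 to -2.99 in curcumin mice). That is relative to the reference, so it does not show whether such cells were present. Goblet cell markers had 3 tested of 8 and none called. The mucin gene Muc2 had no value in curcumin 3. Over the 2 goblet genes with a value in every mouse, Spdef and Spink4, the mean was highest in curcumin 3, at 1.18, the leading mouse for Ang4, and next in control 3, at 0.81, which for Ang4 lay below 4 other mice. The part of goblet cells in Ang4 was not tested.

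Of the oxidant genes none passed. Duox2, the peroxide-producing oxidase, had log ratios of 0.36, 1.57, 1.5 and 1.28 in control mice and 0.52, 1.80, 0.67 and 0.73 in curcumin mice. The groups overlapped, with control 1 the lowest and curcumin 2 the highest of all 8 mice. The difference was -0.24 (SE 0.33, 95% interval -0.996 to 0.51, adjusted p = 0.771 in limma). It ran from -0.54 without curcumin 2 to -0.11 without curcumin 1.

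Duoxa2, its maturation factor, had 1.04, 0.95, 0.17 and 1.55 in control mice and -0.45, -0.10, 1.82 and 0.70 in curcumin mice. Its difference was -0.43 (SE 0.47, 95% interval -1.50 to 0.63, adjusted p = 0.701). It ran from -0.87 without curcumin 3 to -0.12 without curcumin 1. Curcumin 3 and 4, from the second range of slide numbers, were the higher of the curcumin mice for Duoxa2. Within the shared range, without these mice, its difference was -1.20 (SE 0.34, adjusted p = 0.197 in limma). That of Duox2 was -0.015 (SE 0.44, adjusted p = 0.993). The pair did not rank the mice alike: curcumin 2 was highest of all 8 for Duox2 and seventh for Duoxa2, and curcumin 3 was highest for Duoxa2 and sixth for Duox2.

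These genes lie head to head in GRCm38.p6, where Duoxa2 starts 160 bases past the outer end of the RefSeq Duox2 locus. The 250 bases before each start in the RefSeq promoter table are given because the 2 neighbouring genes ranked the mice differently. The table's start of Duox2 lies 513 bases inside the Duox2 locus, so that its whole window is within the annotated gene, and 91 bases of the Duoxa2 window lie within the Duox2 locus too. Capitals mark the same motifs as above.

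Duox2, chr2:122298228-122298477, minus strand: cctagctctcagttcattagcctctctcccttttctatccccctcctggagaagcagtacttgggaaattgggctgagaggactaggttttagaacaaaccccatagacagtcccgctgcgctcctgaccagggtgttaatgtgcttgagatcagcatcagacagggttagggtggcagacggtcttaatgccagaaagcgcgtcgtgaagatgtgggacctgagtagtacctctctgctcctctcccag
Duoxa2, chr2:122298650-122298899, plus strand: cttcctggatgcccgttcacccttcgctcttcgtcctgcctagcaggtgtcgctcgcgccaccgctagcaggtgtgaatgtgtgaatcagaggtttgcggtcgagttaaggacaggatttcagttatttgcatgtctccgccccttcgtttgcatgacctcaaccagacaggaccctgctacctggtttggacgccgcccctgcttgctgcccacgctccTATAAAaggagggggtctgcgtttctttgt

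Duoxa2 holds TATAAA at 30 to 25 bases before its start, and Duox2 holds none of the 3 motifs in its window.

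Among 12 other tested NADPH oxidase genes 4 fell and none rose. They were the components of the phagocyte oxidase: the cytosolic subunits Ncf4 (-1.65, SE 0.20, adjusted p = 0.00365) and Ncf1 (-0.67, SE 0.15, adjusted p = 0.0376), and the membrane subunits Cybb (-1.17, SE 0.15, adjusted p = 0.004) and Cyba (-1.02, SE 0.16, adjusted p = 0.00891). The epithelial oxidase Nox1 had -0.33 (adjusted p = 0.347), its organizer Noxo1 -0.47 (adjusted p = 0.198) and Duox1 -0.17 (adjusted p = 0.344). The list median was -0.40. Whether phagocyte and epithelial subunits differ from each other in their change was not tested. Of 9 peroxidase and peroxide-removing genes 2 rose and none fell, the lactoperoxidase gene Lpo (0.77, SE 0.14, adjusted p = 0.02), whose product uses hydrogen peroxide against bacteria, and the catalase gene Cat (0.60, SE 0.13, adjusted p = 0.0299). Over the whole list the median difference came to -0.15. The glutathione peroxidase gene Gpx2 was lower in every curcumin mouse without passing (-0.75, SE 0.21, adjusted p = 0.0909).

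**Figure D5:**
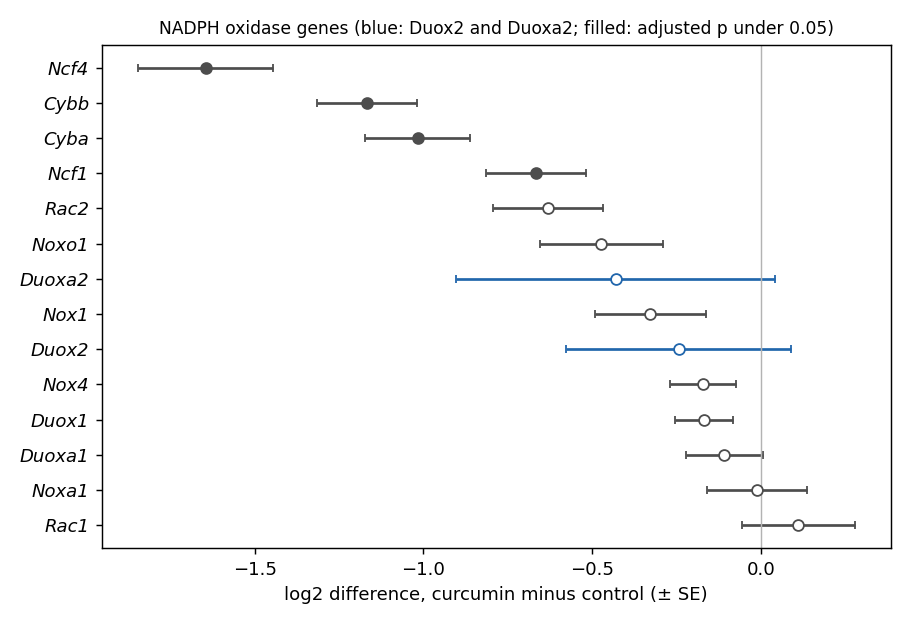
Log2 difference between the diets (horizontal axis, curcumin minus control) with its standard error for Duox2 and Duoxa2 (blue) and 12 other NADPH oxidase genes. Filled points passed the threshold: Ncf4, Cybb, Cyba and Ncf1.

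Nos2, the inducible nitric oxide synthase, did not pass. It had 0.097, 0.11, -0.092 and 0.44 in control mice and 0.11, -0.032, 0.30 and 0.33 in curcumin mice, the smallest spread over mice of the 3 oxidant genes. The means were 0.14 ± 0.22 (SD, n = 4) and 0.18 ± 0.17, with SD above the medians over all measurements (0.15 and 0.13), and the difference was 0.037 (SE 0.13, 95% interval -0.25 to 0.32, adjusted p = 0.919 in limma). The sign turned in 3 of the fits that left out 1 mouse, from which no direction can be read. Around it, 3 of 13 genes of nitric oxide and arginine handling fell and none rose, with a list median of -0.15. They were the arginases Arg1 (-1.03, SE 0.21, adjusted p = 0.0297) and Arg2 (-0.65, SE 0.13, adjusted p = 0.0251), which use the same substrate as Nos2, and Ass1 (-0.41, SE 0.08, adjusted p = 0.0258). Ass1 acts before Asl in rebuilding arginine from citrulline, and Asl did not pass (-0.12, adjusted p = 0.661). The endothelial synthase gene Nos3 had -0.13 (adjusted p = 0.491) and Nos1 -0.14 (adjusted p = 0.639).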

How the data were processed

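RNA was purified with Trizol and RNeasy, amplified from oligo-dT and labelled, per the labels' protocols. The table that was deposited gives log2 ratios; limma is the tool that the submitters' processing notes name for it. Version, method, background correction and genome build are not given in the sources used here. The table had 44290 features and 0 columns without a sample. Features took the symbol of the platform annotation, updated by gene identifier through RefSeq GRCm38.p6 (32042 with 1 symbol). The most frequent log ratio of an array occurred in 191 to 397 features and was set to missing. Probes of 1 gene were averaged, and those with at least 3 values per diet, 23814 in all, went into 1 fit of curcumin minus control (limma 3.58.1, R 4.3.3, lmFit and eBayes, no covariate). Adjusted p are Benjamini-Hochberg over all of them, two-sided, threshold 0.05; errors after ± are SD, and SE and 95% intervals are moderated. Precision is limited by the number of arrays. The fit was tested on simulated data. List genes were named if they passed (up to 4 with the largest change), or else the 2 with the smallest p; any other gene was picked with its values in view. The 10 genes and all lists were chosen with earlier results of these data known, and no list was tested as a set. No protein sequence was used here. Same-numbered mice of the 2 diets had deviations correlated at 0.15, 0.20, -0.01 and -0.03, so the numbers were not taken as pairs. Alternatives covered the shared value, quantile and scale normalization, stricter and looser filters, single probes, slide range, replicate number, array weights and each mouse left out. SD without 1 mouse, list means over genes with no missing value and the ribonuclease median without Ang, Ang2 and Ang3 were added after seeing the data. Figures used Python 3.11.15, pandas 2.3.3 and matplotlib 3.10.9.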

Additional observations from a re-analysis of the deposited data

Results flagged for a closer look

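Lbp in control 3 had a log ratio of -0.19, away from the other 3 controls, whose nearest value was -0.81. Duox2 in curcumin 2 was 1.80, away from the other curcumin mice, whose nearest value was 0.73. Each was marked because its gap to the next mouse took up most of its group's range (Dixon's test at the 95% level). There were 20 groups of 4 mice examined, and chance marks about 1 in 20.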

How the results depend on the processing

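The falls of Pla2g2a and Lbp passed together when the shared log ratio was kept, after quantile and scale normalization, with either other filter on missing values, with single probes and with array weights (3 genes lower there, with Reg3b at -0.94, adjusted p = 0.0469). Both were lost with the slide range as a block and within the shared range (0 lower). With the replicate block 1 gene was lower (Pla2g2a; Lbp had adjusted p = 0.0525) and 1 higher (Ang4, 1.10, adjusted p = 0.0359). Leaving out 1 mouse gave 0 to 2 lower and 0 to 0 higher. Over all alternatives adjusted p ran from 0.00743 to 0.103 for Pla2g2a, from 0.0085 to 0.214 for Lbp, from 0.0199 to 0.378 for Reg3b and from 0.0359 to 0.519 for Ang4. The count of all measurements that changed went from 1082 to 317 with the slide block, 170 within the shared range, 650 with the replicate block and 1677 with array weights, and from 474 to 1304 with 1 mouse left out. Quantile normalization turned the split of all changed measurements from 476 higher and 606 lower to 583 and 465. Nos2 changed sign with the slide block and within the shared range (-0.099), with array weights (-0.047), and without control 3 (-0.040), curcumin 3 (-0.0029) or curcumin 4 (-0.014), and with 1 mouse left out it ran from -0.040 to 0.14. The cause of these shifts was not tested, in the narrower sample sets as elsewhere. Channel intensities were not analysed here, so dim probes could not be told from bright ones.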
